A study of Mus musculus with 13 samples.

Results

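The genes that build, lengthen, desaturate, activate and burn fatty acids were followed in Neuro2a, a mouse neuroblastoma line, after a modelled cryostorage failure. Of 33 genes named for these steps, 32 reached at least 1 FPKM (fragments counted relative to transcript length and library size) in 3 or more of the 13 libraries and were kept. They stand among 34856 genes with values in both deposited tables, of which 13137 met the same rule. The kept genes were 7 of synthesis, 5 of desaturation, 8 of elongation, 4 of activation and 8 listed under oxidation. Cpt1c is counted among the oxidation genes as a relative of Cpt1a, and its part in oxidation was not tested. Acacb lay just inside the rule, with 3 libraries at or above 1 FPKM and a range of 0.630 to 1.235 FPKM. Elovl2, an elongase of polyunsaturated chains, lay just outside: it was listed at 0 in 11 libraries and at 0.637 and 0.274 FPKM in passage 6 experimental libraries 2 and 3.

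Fatty acids are built in the cytosol from acetyl-CoA, which Acly makes from citrate and Acss2 from acetate, through the carboxylase Acaca and the synthase Fasn. Elongases of the Elovl family, working with Hsd17b12, Hacd3 and Tecr in the endoplasmic reticulum, lengthen the product, and the Scd and Fads enzymes put double bonds into it. Chains tied to CoA by the Acsl ligases enter membranes and stored lipid, or cross into mitochondria through Cpt1a and Cpt2. There they are broken down by acyl-CoA dehydrogenases and the trifunctional protein. Neural cells draw on the building side of this pathway for membrane lipid.

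Control cells were frozen in medium with 10% DMSO and held in normal cryostorage until thawing and plating. Experimental cells came from vials in a flask of liquid nitrogen left at 4°C for 34 h. Of this, 10 h let the nitrogen evaporate and the other 24 h let the vials settle at that temperature, and 72 h at -80°C, thawing and plating followed. Both arms were grown in medium with 10% fetal bovine serum and collected at passage 1 (3 control and 4 experimental libraries) and at passage 6 (3 and 3), early and late in recovery, for sequencing of polyadenylated RNA. Nothing in the labels says whether the libraries of a group came from separate vials or cultures, so p-values measure only the spread between these libraries, which may be technical. All come from 1 cell line.

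Summed FPKM were 315034 to 336105 per library at passage 1 and 334839 to 354288 at passage 6, with 12014 to 12467 genes at or above 1 FPKM. Of 20 markers of the neuroblastoma line, 16 were at or above 1 FPKM in every library of each group. Passage 6 experimental libraries 2 and 3 stood apart from the other 11: 20 liver markers summed to 189 and 159 FPKM there against at most 3.65 elsewhere, 10 fibroblast markers to 154 and 137 against at most 16.2, and 16 brain and myelin markers to 129 and 97.7 against at most 14.1. Alb, the defining liver marker, was at 0 in the other 11 libraries, passage 6 experimental library 1 among them. Adipocyte markers summed to at most 2.41 FPKM in every library, over the 8 of 10 that were measured. Colon epithelium markers (25 genes) were lower in the experimental libraries at both passages, at 247 to 519 FPKM against 14.5 to 215 at passage 1 and 133 to 277 against 12.7 to 125 at passage 6. In bulk RNA, fewer cells of a type and less RNA per cell cannot be told apart, nor whether such cells were present at all. The source of these transcripts was not tested.

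The most abundant of the genes were on the building side of the pathway. Scd2, the stearoyl-CoA desaturase of neural tissue (chr19:44293674-44306864, GRCm38), had the highest level of the 32 genes in every group, at 297.6 ± 3.49 FPKM in passage 1 controls and 330.9 ± 2.47 in passage 6 controls (mean ± SD, n = 3 each). Its neighbour and paralog Scd1 stood at 2.69 ± 0.261 and 3.25 ± 0.191 FPKM in the same groups. Scd2 exceeded Scd1 by 96.2 to 125 times in 11 libraries and by 57.7 and 55.9 times in passage 6 experimental libraries 2 and 3. How reads shared by the paralogs were assigned is not given in the sources used here.

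Acly led the synthesis genes at 170.2 ± 1.49 FPKM in passage 1 controls and 98.9 ± 1.86 in passage 6 controls, and Fasn followed at 94.6 ± 2.30 and 77.2 ± 0.703. The mainly cytosolic carboxylase Acaca exceeded its mitochondrial-membrane relative Acacb in every library, by 3.78 to 8.08 times. Hsd17b12, the ketoreductase of the elongation cycle, led its role at 81.9 ± 0.945 and 112.8 ± 2.77 FPKM, and Acsl4, a ligase that prefers arachidonic acid, led the activation genes at 39.8 ± 1.20 and 56.5 ± 1.45. The highest oxidation gene in passage 1 controls, the long-chain dehydrogenase Acadl, was below the leading gene of every other role, at 24.1 ± 1.82 FPKM. Each other role also held genes below Acadl there, with Acaca at 5.18, Scd1 at 2.69, Elovl7 at 5.58 and Acsl1 at 9.73 FPKM. At passage 6 the highest oxidation genes in controls were Acadvl, the very-long-chain dehydrogenase, at 15.9 ± 0.490, Cpt1a, the gatekeeper of mitochondrial entry, at 15.7 ± 0.0518, and Acadl at 15.2 ± 1.17. Their neighbours in that order did not differ beyond their spread. Levels at the 2 passages come from separate tables and were not compared by a test.

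**Figure D1:**
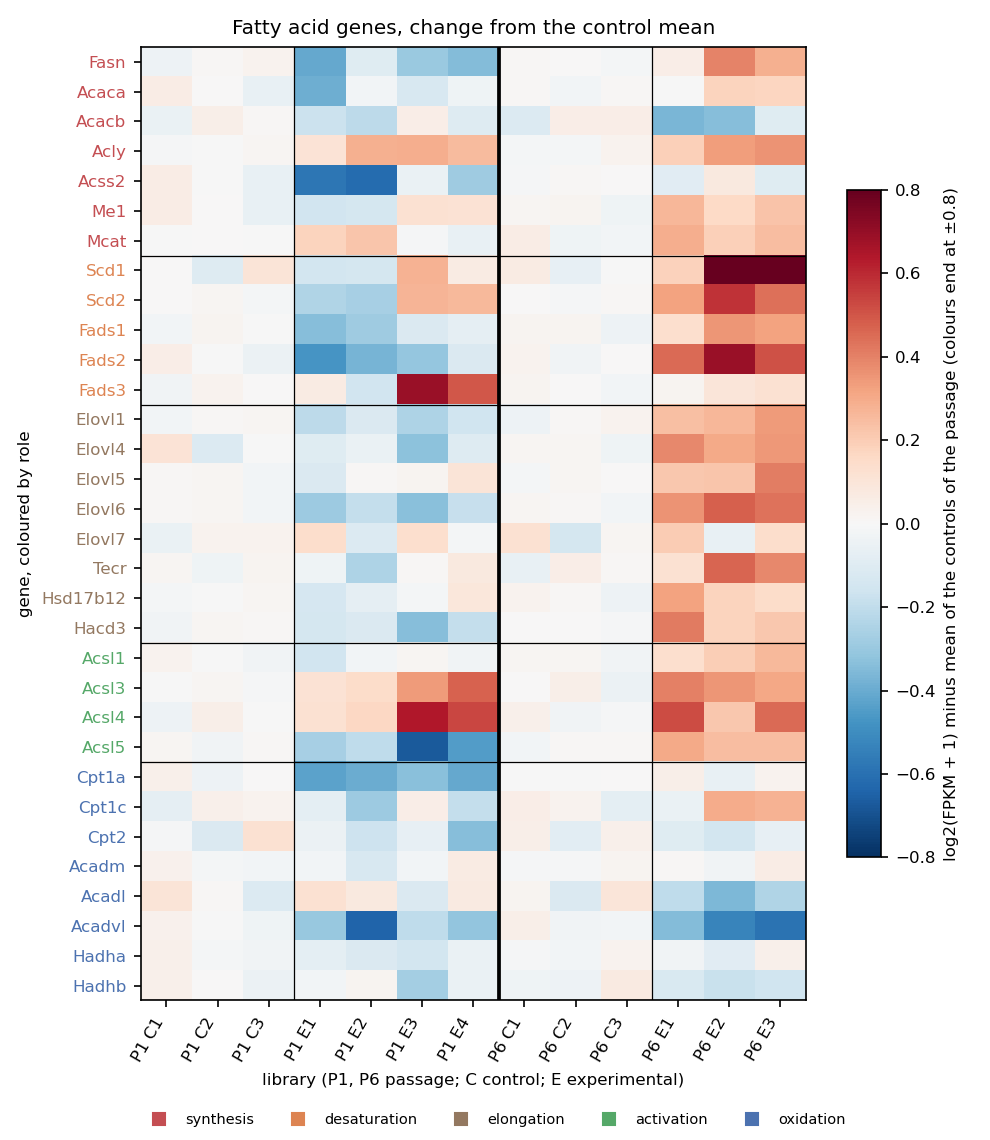
Each row is a gene (name coloured by role) and each column a library; colour gives log2(FPKM + 1) minus the mean of the 3 controls of the same passage, with colours ending at ±0.8. Most synthesis, desaturation, elongation and activation rows are above their controls in all 3 passage 6 experimental columns, with medians of 0.21, 0.24 and 0.30 over the 20 synthesis, elongation and desaturation genes, while the oxidation rows there have medians of -0.08, -0.12 and -0.02.

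The first comparison asked how the cells of the modelled storage failure differed from controls early in recovery. At passage 1, 2 of 31 tested genes were higher in experimental libraries, 8 were lower and 21 did not pass the test (limma on log2(FPKM + 1), Benjamini-Hochberg adjusted p under 0.05 over 12469 genes). That is 32.3% of the genes against 30.4% of all genes tested, a share near the background. By libraries alone, 3 genes had all experimental libraries above all controls and 10 had all below, against 15.8% and 26.9% of all genes tested. Higher calls were 6.45% against 11.5% and lower calls 25.8% against 18.9%. The median log2 change of the 31 genes was -0.08, and that of all genes tested was -0.05. The genes that fell came from every role: Fasn in synthesis, Fads2 in desaturation, Elovl1, Elovl6 and Hacd3 in elongation, Acsl5 in activation, and Cpt1a and Acadvl in oxidation. Fold changes here are on the log2(FPKM + 1) scale, which understates changes of genes with low levels.

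Cpt1a (chr19:3322334-3385733) had the smallest adjusted p of the 31 genes at passage 1. It stood at 13, 12.3 and 12.7 FPKM in the controls and at 9.12, 9.36, 9.81 and 9.27 FPKM in the experimental libraries. Every experimental library was below every control. The log2 change was -0.39 (SE 0.05), 1.31-fold lower, with an adjusted p of 0.000998. Acadvl (chr11:70010183-70015411), which takes the first oxidation step on long chains, measured 15.2, 14.8 and 14.4 FPKM in controls and 11.9, 9.14, 12.8 and 11.7 in experimental libraries. The groups did not overlap, and it fell by 0.36 on the log2 scale (SE 0.10, adjusted p = 0.0256). Acadvl shares 42.9% of its exonic bases with Dvl2 on the opposite strand. Dvl2 itself had log2 changes of -0.05 at passage 1 (adjusted p = 0.515) and -0.10 at passage 6 (adjusted p = 0.318). The library kit marks strand per the labels, and whether the counting used it is not given in the sources used here.

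The other oxidation genes at passage 1 did not pass the test. Their log2 changes ran from -0.15 for Cpt2, the inner-membrane carnitine transferase, to 0.04 for Acadl. The median over all 8 oxidation genes was -0.11.

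Fasn (chr11:120805846-120824547) measured 92.1, 95.0 and 96.6 FPKM in passage 1 controls and 71.1, 88.2, 76.9 and 74.3 in experimental libraries. The groups did not overlap, and Fasn fell by 0.29 on the log2 scale (SE 0.07, adjusted p = 0.0200). Acly (chr11:100476353-100528000), which supplies Fasn with acetyl-CoA, moved the other way: 168.7, 170.1 and 171.7 FPKM in controls against 184.0, 207.1, 208.2 and 202.9. All 4 experimental libraries were above the controls, and Acly rose by 0.23 on the log2 scale (SE 0.05, 1.18-fold, adjusted p = 0.0121). Acss2, the acetate-using enzyme, had a log2 change of -0.38 that did not pass (adjusted p = 0.0629), with experimental libraries at 3.07 to 5.03 FPKM and controls at 4.99 to 5.52. The ratio of Acly to Acss2 was 30.6 to 34.4 in the passage 1 controls and 41.4 to 67.4 in the experimental libraries. Acaca, Me1 and Mcat did not pass, with log2 changes of -0.14, -0.02 and 0.08.

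Among the desaturases only Fads2 (chr19:10062765-10101746), which opens the route to long polyunsaturated chains, passed the test at passage 1. It measured 75.7, 73.0 and 70.6 FPKM in controls and 52.5, 56.1, 58.9 and 67.4 in experimental libraries. No library overlapped, and the log2 change was -0.32 (SE 0.08, adjusted p = 0.0211). Its partner Fads1, which acts after it, had a log2 change of -0.20 with an adjusted p of 0.0648. Scd2 split the experimental libraries: libraries 1 and 2 stood at 251.3 and 247.0 FPKM, below the controls at 294.0 to 300.9, and libraries 3 and 4 at 358.9 and 356.6, above them. Its fitted log2 change was 0.00 (adjusted p = 0.984). Fads3 was also highest in libraries 3 and 4, at 23.9 and 20.8 FPKM. It stood at 15.2 and 12.9 in libraries 1 and 2 and at 14.2 to 14.7 in controls. This split was not limited to desaturases. Me1 measured 34.7 and 35.0 FPKM in libraries 1 and 2 against 42.2 and 42.0 in libraries 3 and 4. Acsl4 measured 43.4 and 44.7 against 62.4 and 57.9, and Acss2 3.19 and 3.07 against 5.03 and 4.14. Other genes split the other way, with Mcat at 14.7 and 15.2 against 12.8 and 12.3. Colon marker sums were 215, 193, 14.5 and 102 FPKM in these 4 libraries and 519, 247 and 260 in the controls. Cartilage marker sums were 34.6, 35.3, 38.5 and 10.7 FPKM against 10.4, 52.4 and 51.9 in the controls. In a limma fit that adjusted for the summed colon and cartilage markers, the log2 change of Scd2 became -0.30 and passed (adjusted p = 0.0335). That of Fads3 became -0.13 and did not (adjusted p = 0.382). The colon sums of the groups do not overlap, so this fit cannot fully separate group from marker level. It also leaves few libraries for each term.

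In elongation, 3 genes fell at passage 1. Elovl6 (chr3:129532355-129638495), the elongase that acts on the product of Fasn, went from 12.3, 12.3 and 12.0 FPKM in controls to 9.76, 10.5, 9.46 and 10.6 in experimental libraries. Elovl1 (chr4:118428093-118432953), an elongase of very long saturated chains, went from 21.6, 22.2 and 22.2 FPKM to 18.9, 20.2, 18.4 and 19.6. Hacd3 (chr9:64986983-65021693), a dehydratase of the elongation cycle, went from 49.3, 50.8 and 50.6 FPKM to 45.5, 46.3, 39.4 and 43.9. In none of these did the groups overlap, and they fell by 0.25, 0.18 and 0.20 on the log2 scale (adjusted p = 0.0102, 0.0218 and 0.0398). The other 5 tested elongation genes had log2 changes between -0.14 (Elovl4) and 0.04 (Elovl7).

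The activation genes went in both directions at passage 1. Acsl5 (chr19:55251938-55297720), a ligase of mitochondrial and endoplasmic reticulum membranes, measured 26.3, 25.5 and 26.1 FPKM in controls and 21.4, 22.4, 15.9 and 18.8 in experimental libraries, and fell by 0.40 on the log2 scale (SE 0.11, adjusted p = 0.0237). Acsl3 (chr1:78657825-78707743), a ligase of lipid droplets, measured 20.7, 21 and 20.6 FPKM against 22.6, 23.1, 26.6 and 29.2, and rose by 0.27 (SE 0.09, adjusted p = 0.0473). Neither gene's groups overlapped. Acsl4 lay above its controls in all 4 experimental libraries without passing (log2 change 0.37, adjusted p = 0.0603), and Acsl1 had a log2 change of -0.05.

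The passage 1 counts depend on which libraries and which scaling are used. Without control 1, 2 or 3 the number called was 2, 2 and 3 in place of 10. Median-of-ratios scaling gave 3 higher and 3 lower and turned the median of the 19 synthesis, elongation and desaturation genes from -0.05 to 0.02. Over all genes that scaling raised the higher share of calls from 37.8% to 55.7%.

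The second comparison asked what remained after 6 passages. At passage 6, 17 of 32 genes were higher in experimental libraries, 2 were lower and 13 did not pass. That is 53.1% higher against 8.98% of all 12458 genes tested, 6.25% lower against 10.8%, and 59.4% called in either direction against 19.8%. The median log2 change was 0.23 for the 32 genes and -0.04 for all genes tested. Of the 20 synthesis, elongation and desaturation genes 13 rose and 0 fell, all 4 activation genes rose, and of the 8 oxidation genes 0 rose and 2 fell. By libraries alone, 20 genes had all experimental libraries above all controls and 3 had all below, against 17.4% and 24.3% of all genes tested.

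Fads2, Scd2 and Elovl6 had the largest called rises at passage 6. Fads2 measured 74.4, 71.5 and 73.0 FPKM in controls and 100.2, 118.5 and 104.3 in experimental libraries. The 3 experimental libraries stood clear of the controls, and the log2 change was 0.55 (SE 0.07, 1.47-fold, adjusted p = 0.00383). Scd2 measured 331.6, 328.1 and 332.9 FPKM against 413.6, 493.6 and 448.7, again without overlap, and rose by 0.45 (1.36-fold, adjusted p = 0.00761). Fads1 (chr19:10182888-10196877) measured 45.5, 45.5 and 43.7 FPKM against 49.4, 57.7 and 56.2, and rose by 0.27 (adjusted p = 0.0305). Fads2 exceeded Fads1 by 1.57 to 1.67 times in the controls and by 1.85 to 2.05 times in the experimental libraries.

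Scd1 had the largest fitted log2 change of the 32 genes, 0.81 with SE 0.24, and did not pass the test (adjusted p = 0.0544). It stood at 3.45, 3.07 and 3.24 FPKM in controls, at 3.84 in experimental library 1, and at 8.56 and 8.03 in libraries 2 and 3. Those 2 libraries are the ones with the high liver, fibroblast and brain marker sums, and what part these have in the Scd1 level was not tested. Fads3 did not pass either, with a log2 change of 0.08.

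Of the 8 elongation genes 7 rose at passage 6. Elovl6 measured 11.1, 11.0 and 10.7 FPKM in controls and 14.3, 15.6 and 15.1 in experimental libraries, a log2 change of 0.42 (SE 0.05, 1.34-fold, adjusted p = 0.00376). Elovl4 (chr9:83778692-83806277), which makes the very long chains of brain and retina, measured 18.1, 18.1 and 17.5 FPKM against 23.7, 22.3 and 23.1, a log2 change of 0.35 (1.27-fold, adjusted p = 0.00487). In both genes the lowest experimental library was above the highest control. Elovl1 went from 30.6, 31.7 and 32.1 FPKM to 37.3, 38.1 and 40.0, and Elovl5 (chr9:77917364-77984519), an elongase of polyunsaturated chains, from 62.4, 63.9 and 63.1 to 73.5, 73.7 and 84.1. Both rose by 0.28 on the log2 scale, with adjusted p = 0.00994 and 0.0219.

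The shared enzymes of the elongation cycle rose with the elongases. Hsd17b12 (chr2:94032689-94157964) measured 115.2, 113.3 and 109.7 FPKM in controls and 141.4, 127.5 and 125.1 in experimental libraries. Hacd3 measured 66.9, 66.8 and 66.4 FPKM against 89.4, 75.4 and 77.6. Tecr (chr8:83571698-83607971), the last reductase of the cycle, measured 72.5, 78.6 and 76.1 FPKM against 82.3, 104.7 and 99.1. No groups overlapped in these genes, and their log2 changes were 0.22, 0.27 and 0.32 (adjusted p = 0.0420, 0.0339 and 0.0460). In Hsd17b12 and Hacd3 library 1 was the highest, and in Tecr it was the lowest of the 3. Elovl7 did not pass, with a log2 change of 0.10.

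In synthesis, Acly, Me1 and Mcat rose at passage 6, and Fasn, Acaca, Acacb and Acss2 did not pass. Acly measured 97.9, 97.8 and 101.1 FPKM in passage 6 controls and 113.1, 124.7 and 127.3 in experimental libraries, a log2 change of 0.29 (SE 0.06, adjusted p = 0.0144). Me1 (chr9:86581371-86695953), the malic enzyme that makes NADPH, measured 22.3, 22.4 and 21.5 FPKM against 26.7, 24.8 and 26.0. Mcat (chr15:83546797-83563787), which loads malonyl groups for mitochondrial synthesis, measured 8.97, 8.32 and 8.42 FPKM against 10.7, 9.89 and 10.3. Neither overlapped, and they rose by 0.22 and 0.24 (adjusted p = 0.0221 and 0.0246). Fasn stood at 77.7, 77.5 and 76.4 FPKM in controls, 80.1 in experimental library 1, and 101.9 and 94.2 in libraries 2 and 3. All 3 were above the controls, yet the spread between them was wide and the log2 change of 0.24 did not pass (adjusted p = 0.0854). Acaca, Acacb and Acss2 had log2 changes of 0.12, -0.27 and -0.04.

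Acsl3 measured 29.6, 30.5 and 28.5 FPKM in passage 6 controls and 39.4, 38.1 and 36.8 in experimental libraries. Acsl4 (chrX:142317993-142390535) measured 58.2, 55.4 and 56.1 FPKM against 81.7, 65.8 and 77.8, and Acsl5 26.4, 27.1 and 27.1 against 33.4, 32.1 and 32.1. Acsl1 (chr8:46471037-46536051), the ligase most abundant in fat and liver, measured 9.42, 9.43 and 9.12 FPKM against 10.3, 10.8 and 11.3. None of these groups overlapped. They rose by 0.35, 0.40, 0.27 and 0.20 on the log2 scale (adjusted p = 0.00517, 0.0175, 0.00904 and 0.0413). Acsl5 shares 8.31% of its exonic bases with Zdhhc6 on the opposite strand, and Zdhhc6 rose too at passage 6, by 0.36 (adjusted p = 0.00463).

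The long-chain and very-long-chain dehydrogenases were the genes that fell at passage 6. Acadvl measured 16.5, 15.6 and 15.7 FPKM in controls and 12.3, 10.7 and 10.3 in experimental libraries, with no overlap, and fell by 0.49 on the log2 scale (SE 0.07, 1.4-fold lower, adjusted p = 0.00639). Acadl (chr1:66830839-66863277) measured 15.3, 13.9 and 16.2 FPKM against 13, 11.6 and 12.7, and fell by 0.27 (SE 0.07, adjusted p = 0.0401). The remaining 6 oxidation genes did not pass. Hadhb, the thiolase subunit of the trifunctional protein, had a log2 change of -0.15. Cpt1c, the brain relative of Cpt1a, had the highest log2 change of the role, 0.17. Cpt1c stood at 10.2 to 11.3 FPKM in controls, 10.4 in experimental library 1, and 13.5 and 13.3 in libraries 2 and 3, where the brain and myelin markers summed to 129 and 97.7 FPKM, and their part in its level was not tested. Cpt1a, which fell at passage 1, stood at 15.7 to 15.8 FPKM in controls and 15.1 to 16.3 in experimental libraries, a log2 change of 0.01 (adjusted p = 0.946).

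**Figure D2:**
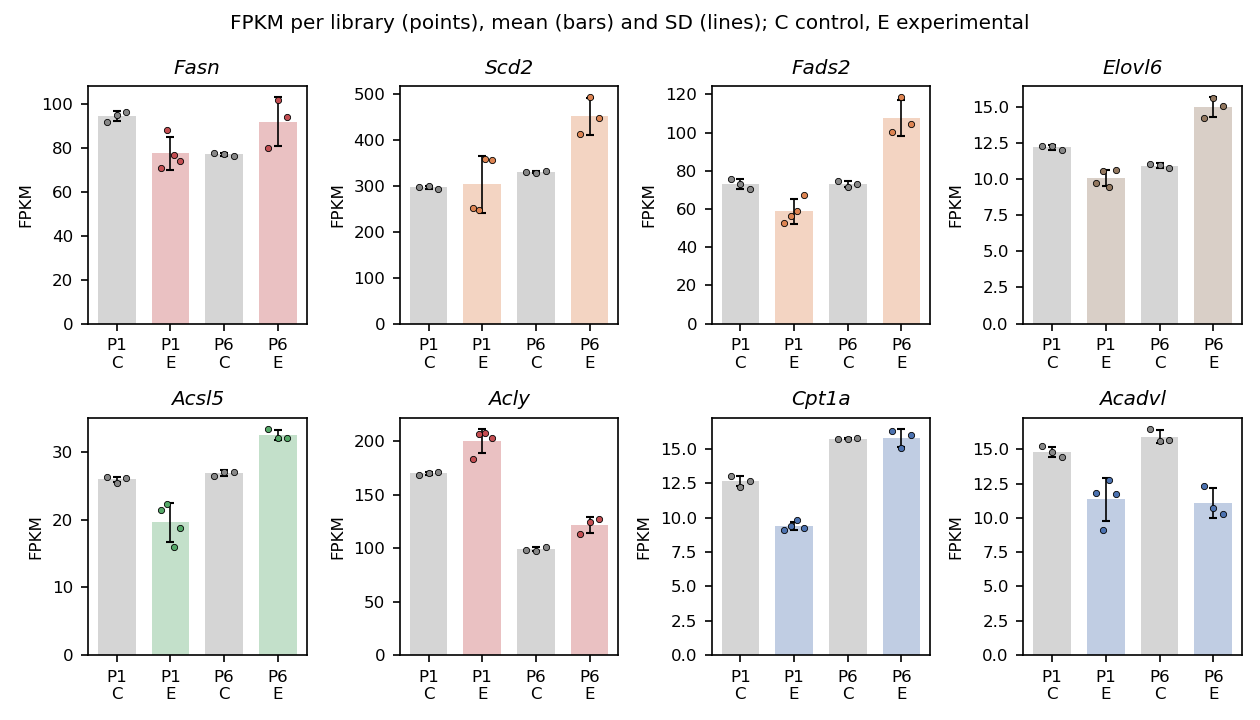
FPKM of the genes in each library (points) at passages 1 and 6 (P1, P6) in control (C) and experimental (E) groups, with group means as bars from 0 and SD as lines. Fads2 lies below its controls at passage 1 (52.5 to 67.4 against 70.6 to 75.7) and above them at passage 6 (100.2 to 118.5 against 71.5 to 74.4), and Acadvl lies below them at both.

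Because libraries 2 and 3 stood apart at passage 6, library 1 was also set alone against the 3 controls, an alternative chosen with earlier results of these data known, in which the lone library is assumed to vary as the controls do. In it 14 of 31 genes were higher and 1, Acadvl, was lower, against 9.43% and 10.8% of 12144 genes. The 19 synthesis, elongation and desaturation genes tested gave 11 higher, 0 lower and a median log2 change of 0.22, while the median of all genes was -0.02. Fads2 had a log2 change of 0.45 in library 1, Scd2 0.32, Hacd3 0.42, Acsl4 0.52 and Acadvl -0.35. Genes called with all libraries and not with library 1 alone were Fads1 (0.14), Tecr (0.12), Acsl1 (0.13) and Acadl (-0.20). Library 1 had liver, fibroblast and brain marker sums of 2.41, 5.47 and 10.8 FPKM, below those of all 3 controls of its passage.

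**Figure D3:**
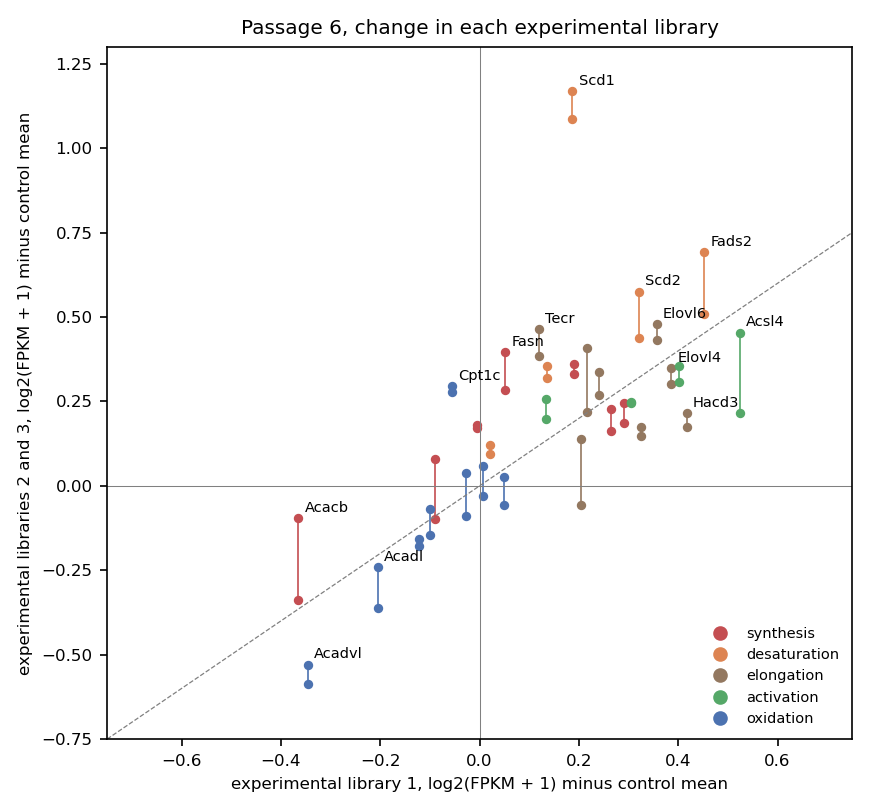
Each point is a gene in 1 of passage 6 experimental libraries 2 and 3, with its log2(FPKM + 1) minus the control mean in library 1 on the x axis and in library 2 or 3 on the y axis, coloured by role; a vertical line joins the 2 libraries of a gene and the dashed line marks equal change. Scd1 lies far above the line (0.19 in library 1), and Fads2 and Scd2 are high on both axes (0.45 and 0.32 in library 1).

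The passage 6 calls were sensitive to losing a control library. With 2 controls left, 6, 6 and 7 genes were called in place of 19, and without experimental library 3, 9 were higher and 1 was lower. Scd2, Fads2, Elovl4, Elovl6, Acsl3 and Acadvl were called under every alternative run.

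The third comparison tested whether the change at passage 6 differed from that at passage 1. It did for 11 of 32 genes, and in all of them the signed change was more positive at passage 6. By limma 0 were more negative, and 1, Acadl, was by its unadjusted p alone. That is 34.4% against 8.46% of 13019 genes that were more positive and 6.27% that were more negative, 14.7% together. The median difference was 0.25 for the 32 genes and 0.02 for all genes. By role, the genes were Fasn in synthesis, Fads1 and Fads2 in desaturation, Elovl1, Elovl4, Elovl5, Elovl6 and Hacd3 in elongation, Acsl1 and Acsl5 in activation, and Cpt1a in oxidation.

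Of these, 5 passed the test in opposite directions at the 2 passages. Fads2 had a log2 change of -0.32 at passage 1 and 0.55 at passage 6, a difference of 0.87 (SE 0.11, adjusted p = 0.000950). Elovl6 went from -0.25 to 0.42, a difference of 0.67 (SE 0.07, adjusted p = 0.000313), and Elovl1 from -0.18 to 0.28, a difference of 0.46 (adjusted p = 0.00109). Acsl5 went from -0.40 to 0.27 and Hacd3 from -0.20 to 0.27, differences of 0.66 and 0.47 (adjusted p = 0.00582 and 0.00732). In each, all 4 passage 1 experimental libraries were below their controls and all 3 at passage 6 above. Zdhhc6, which overlaps Acsl5 on the opposite strand, went from -0.23 (adjusted p = 0.0538, not passing) to 0.36. Its difference was 0.58 (limma, adjusted p = 0.00232), and what part the overlap has in the Acsl5 values was not tested.

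Cpt1a was lower only in the passage 1 test, with a difference of 0.40 (SE 0.06, adjusted p = 0.00216), and Fasn fell at passage 1 and did not pass at passage 6, with a difference of 0.53 (adjusted p = 0.0124). Fads1, Elovl4, Elovl5 and Acsl1 rose at passage 6 and did not pass at passage 1, with differences of 0.47, 0.49, 0.28 and 0.24 (adjusted p = 0.0109, 0.00821, 0.0451 and 0.0424). Acly rose at both passages (difference 0.06, SE 0.08), Acsl3 rose at both (0.09, SE 0.11), and Acadvl fell at both (-0.12, SE 0.13), and none of these differences passed. The difference for Scd2 was 0.44 with SE 0.18 (limma, adjusted p = 0.123). In passage 6 experimental library 1, Fasn was 0.05 above its control mean on the log2 scale, against 0.40 and 0.28 in libraries 2 and 3. Fads1 was 0.14 above in library 1, against 0.355 and 0.32. What part the high marker sums of libraries 2 and 3 have in the differences of Fasn and Fads1 was not tested.

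**Figure D4:**
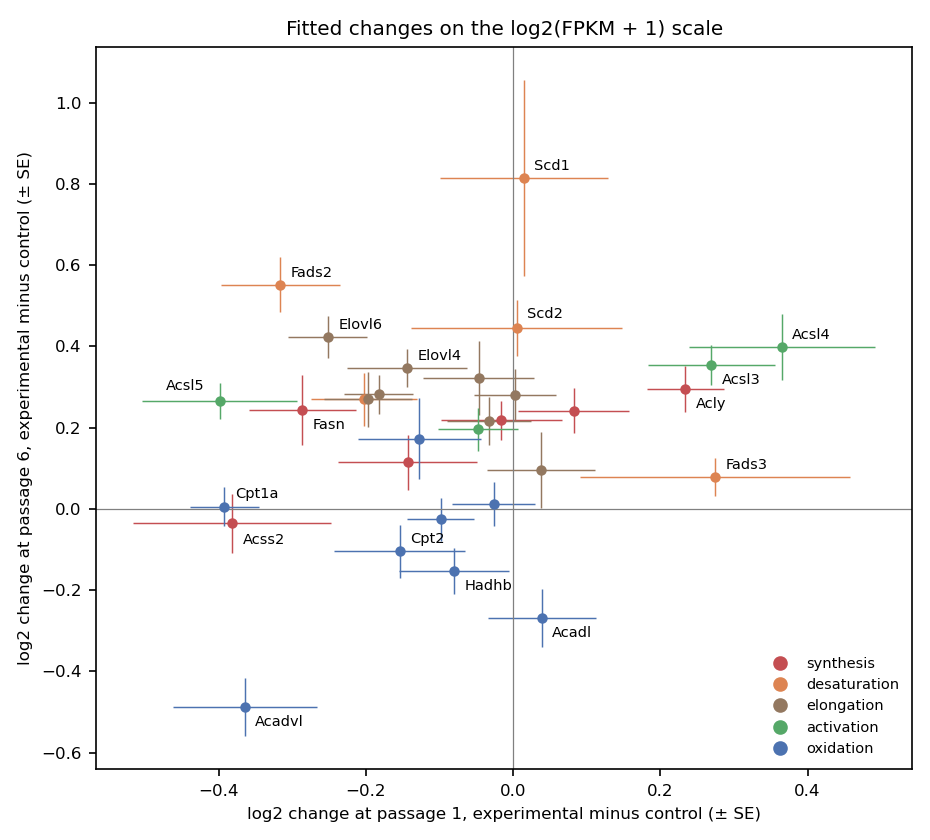
Fitted log2 change of each gene, experimental minus control, at passage 1 (x axis) and passage 6 (y axis), with SE as lines and colour for role. Fads2, Elovl6, Elovl1, Acsl5 and Hacd3 are in the upper left, lower at passage 1 and higher at passage 6; Acly and Acsl3 are in the upper right and Acadvl in the lower left.

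The promoters of 29 of the 33 named genes were found in RefSeq (GRCm38.p6), and the 250 bases before each start were searched on both strands for 4 motifs. CACCCCAC, the core of the sterol regulatory element, was in 3 (Elovl7, Tecr and Acsl1), against 2.98% of 27025 genes. The E-box CACGTG, a site type bound by sterol and carbohydrate response factors, was in Elovl5 and Hacd3, against 6.86% of genes. CCAAT was in 15 of 29 against 37.5%, and the GC box GGGCGG in 21 against 35.4%. A match describes the letters only and is no evidence of binding.

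The promoters of 4 genes are printed 5′ to 3′ on the gene's strand, with matched motifs in capitals (a motif on the other strand appears as its reverse complement). Fads2 had the largest called rise at passage 6 (chr19:10101504-10101753, minus strand, 1 GC box). Its RefSeq start lies inside the gene interval given above, so most of the printed window lies inside it too. Elovl5 (chr9:77917115-77917364, plus strand) and Hacd3 (chr9:65021718-65021967, minus strand, where a CCAAT and a GC box adjoin) carry the E-boxes. Acadvl (chr11:70015429-70015678, minus strand) fell at both passages and holds none of the motifs in this window.
Fads2: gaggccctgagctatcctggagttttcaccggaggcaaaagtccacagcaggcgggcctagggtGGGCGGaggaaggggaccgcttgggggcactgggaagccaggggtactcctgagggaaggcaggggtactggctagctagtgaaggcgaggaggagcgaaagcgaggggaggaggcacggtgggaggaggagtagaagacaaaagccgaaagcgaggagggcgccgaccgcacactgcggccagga
Elovl5: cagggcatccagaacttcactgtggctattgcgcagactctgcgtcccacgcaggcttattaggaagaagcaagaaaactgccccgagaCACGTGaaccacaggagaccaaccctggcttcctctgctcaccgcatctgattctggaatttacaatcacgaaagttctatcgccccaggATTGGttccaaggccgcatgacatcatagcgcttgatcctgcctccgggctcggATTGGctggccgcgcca
Hacd3: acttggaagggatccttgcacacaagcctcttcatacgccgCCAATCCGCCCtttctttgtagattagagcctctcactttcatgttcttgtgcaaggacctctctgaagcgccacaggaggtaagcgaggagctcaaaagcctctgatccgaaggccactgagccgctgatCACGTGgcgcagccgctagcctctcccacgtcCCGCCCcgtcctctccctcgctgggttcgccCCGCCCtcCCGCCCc
Acadvl: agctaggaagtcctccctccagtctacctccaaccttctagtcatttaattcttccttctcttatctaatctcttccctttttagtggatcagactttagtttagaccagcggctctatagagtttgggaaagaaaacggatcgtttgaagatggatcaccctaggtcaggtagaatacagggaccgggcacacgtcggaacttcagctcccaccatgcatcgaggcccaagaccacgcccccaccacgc

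Genes around the pathway were read from lists of its regulators, suppliers and relatives, chosen with earlier results known. Together they gave 6 higher and 29 lower of 119 at passage 1 (5.04% and 24.4%), and 17 higher and 9 lower of 119 at passage 6 (14.3% and 7.56%). Over all genes tested the shares were 11.5% higher and 18.9% lower at passage 1, and 8.98% and 10.8% at passage 6, and each list's counts stand against these. Among 16 tested regulators of synthesis at passage 6, 4 rose and 3 fell. Srebf2, the sterol-responsive transcription factor, measured 84.9, 83.6 and 83.7 FPKM in controls and 115.8, 147.7 and 131.2 in experimental libraries, a log2 change of 0.63 (adjusted p = 0.00475). Insig1, which retains that factor's precursor in the endoplasmic reticulum, rose by 0.49 and Mbtps1, the protease that cuts it, by 0.33, while Mlxip, a glucose-responsive factor, fell by 0.34 on the log2 scale. Srebf1, the factor most tied to fatty acid synthesis, did not pass at either passage. Its log2 changes were -0.11 and 0.18 (limma, adjusted p = 0.414 and 0.247). At passage 6 it stood at 107.7 to 111.5 FPKM in controls and 106.9 in experimental library 1. In libraries 2 and 3, with the high liver, fibroblast and brain marker sums, it stood at 146.1 and 124.4, and their part in its level was not tested. At passage 1, 1 of 17 regulators rose (Prkab2, a subunit of the energy sensor AMPK, 0.45) and 3 fell (Mlx, -0.25, Mbtps2, -0.23, and Prkag1, -0.13).

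Of 7 other desaturation and elongation genes tested at passage 6, 3 were higher and 1 was lower. Scd3 rose by 0.47, Hacd2 by 0.28 and the ceramide desaturase Degs1 by 0.22. Fads6, a desaturase relative of unsettled function, was the gene that fell. It measured 11.1, 11.0 and 11.1 FPKM in passage 1 controls and 5.56, 5.95, 6.54 and 5.94 in experimental libraries, and 17.1, 17.8 and 17.4 against 14.0, 13.5 and 13.6 at passage 6. It fell at both passages, by 0.79 and 0.33 on the log2 scale (adjusted p = 0.000110 and 0.00524). Of 9 genes of citrate, acetate and NADPH supply, Idh1 (0.48) and Pgd (0.19) rose at passage 6, and Mthfd2 (-0.19) and G6pdx (-0.17) fell at passage 1.

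A further list joined mitochondrial fatty acid synthesis, which makes the lipoate precursor, with Lias, Lipt1 and Lipt2, which make or attach lipoate. Of its 8 tested genes, 6 fell and 0 rose at passage 1 (75.0% lower against 18.9% of all genes). Acsf3 was at -0.58, Oxsm at -0.54, Cbr4 at -0.42 and Lias at -0.35. At passage 6, 0 of the 8 passed in limma, and 2, Cbr4 and Lipt2, reached the same threshold by their unadjusted p. Mcat, an enzyme of mitochondrial fatty acid synthesis that is counted with the synthesis genes, is not among the 8. Its log2 change was 0.08 at passage 1, which did not pass, and it rose by 0.24 at passage 6. Ndufab1 and Lias, the most abundant there, had adjusted p of 0.358 and 0.298. Peroxisomal oxidation gave 5 lower of 12 at passage 1 (Ehhadh -0.65, Amacr -0.40 and Crot -0.33 among them) and 2 higher of 13 at passage 6, with the transporter Abcd3 (0.22) among them. In other mitochondrial oxidation, the short-chain dehydrogenase Acads fell at both passages, by 0.57 and 0.48 on the log2 scale (adjusted p = 0.000261 and 0.0139), as did Acad12, by 0.44 and 0.30. Slc22a5, the carnitine importer, fell by 0.39 on the log2 scale at passage 1, and Crat, a carnitine transferase of short chains, rose by 0.25 at passage 6. These made 3 lower of 20 at passage 1, and 1 higher and 2 lower of 21 at passage 6.

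Regulators of oxidation gave 1 higher and 3 lower of 10 at passage 1 and 1 lower of 10 at passage 6. Rxra, the partner of many nuclear receptors, rose by 0.67 at passage 1, while the coactivator Ppargc1b fell at both passages (-0.42 and -0.33), and Esrra (-0.29) and Pparg (-0.28) fell at passage 1. Among targets of the PPAR receptors, Fabp3 (-0.25) fell at passage 1, 1 of 4 tested, and 2 of 5 fell at passage 6, with Creb3l3 (-0.39) among them.

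For uptake, binding and activation beyond the 4 ligases, 2 rose and 3 fell of 13 at passage 1 (Slc27a1 0.61, Acot13 -0.37, Fabp3 -0.25 and Acsl6 -0.25 among them) and 3 rose and 0 fell at passage 6 (the transporters Slc27a4, 0.38, and Slc27a3, 0.20, and the thioesterase Acot7, 0.23). Of the glycerolipid and lipid droplet genes, 2 rose and 3 fell of 19 at passage 1. The seipin gene Bscl2 had the lowest change, from 14.6, 14.9 and 14.8 FPKM in controls to 9.10, 8.06, 10.1 and 9.05 (log2 change -0.65, adjusted p = 0.000680). Mgll (0.45) rose, and Pnpla3 (-0.29) and Fitm2 (-0.27) fell. At passage 6, 2 of 18 rose and 0 fell: Agpat1 (0.66) and Gpat4 (0.47), acyltransferases of the first steps of glycerolipid synthesis.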

How the data were processed

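Polyadenylated RNA of 13 Neuro2a libraries was measured. The authors deposited FPKM values per gene in 2 tables, 1 per passage. The genome build mm10 (GRCm38) and the tools HISAT2, StringTie, cutadapt, edgeR and DESeq2 come from the submitters' processing notes, and their versions and roles are not given in the sources used here. Of 34857 genes, 1 with an empty cell was left out; 34730 had a symbol. FPKM hold no read counts, so absolute depth is unknown and no counting interval is given; ratios of the lowest values put relative depth at 1.00 to 1.34 of control 1 at passage 1 and 0.94 to 1.08 at passage 6.

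Values were taken as log2(FPKM + 1). Each passage was fitted over genes reaching 1 FPKM in 3 or more of its libraries, with limma 3.58.1 (R 4.3.3; moderated test with intensity trend, two-sided), with Benjamini-Hochberg adjustment over all genes and calls at an adjusted p under 0.05. The difference of the changes was 1 contrast over all 13 libraries. The fit was tested on simulated data. Every gene called at a passage is given by library at that passage, and the highest gene of each role by its control mean and SD. Passage 1 values by library of Fads1, Elovl4, Elovl5 and Acsl1, called in the difference, are not reported here. From each pathway list up to 4 called genes with the largest change are named. Some genes that this rule would name are not reported here. Srebf1 was named outside this rule, after its values were seen, as were the overlapping genes Dvl2 and Zdhhc6. Members and lists were chosen with earlier results of these data known. Alternatives were other pseudocounts, filters, scalings, weights and covariates, a replicate block and leaving out libraries. Elovl2 was below the filter and not tested, and Acacb was not tested at passage 1.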

Additional observations from a re-analysis of the deposited data

Results flagged for a closer look

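The change in experimental libraries differed between passages, in the test of the difference itself, for 11 genes. On the log2 scale the difference, passage 6 minus passage 1, was 0.53 for Fasn, 0.47 for Fads1, 0.87 for Fads2, 0.46 for Elovl1, 0.49 for Elovl4, 0.28 for Elovl5, 0.67 for Elovl6, 0.47 for Hacd3, 0.24 for Acsl1, 0.66 for Acsl5 and 0.40 for Cpt1a. Of these, 7 passed under every alternative run: Acsl5, Cpt1a, Elovl1, Elovl4, Elovl6, Fads2 and Hacd3. In the passage 1 experimental group, the only one with 4 libraries, 0 of the 32 genes had a library far from the other 3 by Dixon's criterion.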

How the results depend on the processing

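At passage 1, 10 genes were called (2 higher, 8 lower). The number was 4 without a filter (1 and 3), 6 with median-of-ratios scaling (3 lower), 2 with controls 2 and 3 against experimental libraries 1 to 3 (0 higher, 2 lower) and 2 to 11 leaving out 1 library (0 to 3 higher, 2 to 10 lower). Lower calls were 5 with equal totals, and higher calls 1 without a trend and 0 with colon and cartilage sums as covariates. At passage 6, 19 were called (17 and 2): 10 without a filter (9 and 1), and 6 to 23 leaving out 1 library (5 to 21 higher, 1 to 2 lower); 1 was lower with equal totals, median-of-ratios scaling, no trend or library 1 alone. For the difference, 0 was more negative at passage 6, but 1 was with equal totals, with or without mitochondrial genes, with median-of-ratios scaling and with array weights, and 0 to 1 leaving out 1 library. The cause was not tested, save that settings with fewer libraries have fewer data. Calls held under every alternative for 1 of 10 genes at passage 1 (Cpt1a), 6 of 19 at passage 6 and 7 of 11 for the difference.

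With a replicate block, 3 genes were called at passage 1 (0 higher, 3 lower) and 12 at passage 6 (10 higher). The numbers share no stated vial. Same-numbered libraries correlated at 0.166, -0.192 and 0.239 at passage 1 and -0.066, -0.06 and 0.033 at passage 6. Differently numbered pairs ran from -0.354 to 0.263 at passage 1 and from -0.092 to 0.106 at passage 6. These are correlations of deviations from means of few libraries. They cannot tell whether same-numbered libraries share a vial or batch.

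Of single-gene values under the alternatives, 560 of 681 at passage 1, 527 of 630 at passage 6 and 763 of 826 for the difference kept their direction and side of the threshold, 65, 86 and 38 no longer passed, 15, 8 and 15 newly passed, and 41, 9 and 10 changed sign. Every value that changed sign was uncalled with the reported settings, and 1 passed after the change: Scd2 at passage 1 with the 2 covariates (adjusted p = 0.0335). At passage 1, with equal totals, the log2 value became 0.027 for Me1, 0.011 for Hsd17b12 and 0.012 for Acadm. With median-of-ratios scaling, the log2 value became 0.050 for Me1, 0.020 for Tecr, 0.035 for Hsd17b12, 0.014 for Acsl1 and 0.034 for Acadm. With quantile normalization, the log2 value became 0.0042 for Acsl1 and 0.016 for Acadm. With equal totals without mitochondrial genes, the log2 value became 0.010 for Me1. With array weights, the log2 value became 0.017 for Me1 and 0.0062 for Acadm. With the replicate block, the log2 value became -0.0034 for Scd1, -0.081 for Scd2 and -0.030 for Elovl5. With controls 2 and 3 against libraries 1 to 3, the log2 value became -0.0030 for Scd1, -0.080 for Scd2 and -0.026 for Elovl5. With the 2 covariates, the log2 value became -0.21 for Scd1, -0.30 for Scd2, -0.13 for Fads3, -0.053 for Elovl5, -0.0080 for Elovl7 and 0.050 for Hadhb. Leaving out 1 library, it ran from -0.061 to 0.030 for Me1, -0.074 to 0.069 for Scd1, -0.084 to 0.10 for Scd2, -0.030 to 0.043 for Elovl5, -0.016 to 0.091 for Acadl, -0.074 to 0.00050 for Hsd17b12, -0.089 to 0.019 for Tecr and -0.058 to 0.0075 for Acadm. At passage 6, with equal totals, the log2 value became 0.0026 for Hadha. With median-of-ratios scaling, the log2 value became 0.011 for Hadha. With quantile normalization, the log2 value became 0.0064 for Acss2. With library 1 alone, the log2 value became -0.0061 for Acaca and -0.055 for Cpt1c. Leaving out 1 library, it ran from -0.016 to 0.038 for Cpt1a, -0.058 to 0.0052 for Hadha and -0.011 to 0.033 for Acadm. For the difference, with array weights, the log2 value became -0.011 for Acsl4. With the replicate block, the log2 value became -0.013 for Cpt2. With library 1 alone, the log2 value became -0.043 for Acly and 0.019 for Acadvl. Leaving out 1 library, it ran from -0.013 to 0.11 for Cpt2, -0.048 to 0.12 for Acsl4 and -0.013 to 0.13 for Elovl7.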
